A study of Mus musculus with 9 samples.

Results

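The genes that build ribosomes were measured in naive CD4+ T cells, helper cells still waiting for their antigen. A list of 35 genes of RNA polymerase I and of ribosome assembly in the nucleolus was taken by gene symbol, and all 35 were found among the 55487 gene IDs of the files and passed the filter on low counts. Poly(A) RNA came from spleens of wild-type C57BL6/J mice in 3 groups of 3 libraries. The first group was from mice given anti-IL-1b, an antibody against the inflammatory cytokine IL-1b, in vivo on 10 consecutive days. The second was from mice given MCC950, a small molecule that inhibits the inflammasome sensor NLRP3, likewise for 10 days. The third was from mice with no treatment. The labels give no dose, sex, age, vehicle, sort or batch. Whether each library stands for its own mouse is not stated, and p-values here describe the spread among libraries, which may be technical.

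Ribosomes are assembled in the nucleolus, where RNA polymerase I transcribes the precursor of the large ribosomal RNAs. Small nucleolar RNAs (snoRNAs), carried in protein complexes of the box C/D and box H/ACA types, guide the chemical modification of that precursor, and large assembly complexes cut and fold it into the small and the large subunit. Resting T cells keep this output low and raise it when they are activated, with the transcription factor Myc among its known drivers.

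Libraries held between 14775375 and 16676626 expected counts with anti-IL-1b, 16769960 to 18497827 with MCC950 and 17335367 to 21394797 without treatment. The 35 genes took 0.419 to 0.429% of these counts in the anti-IL-1b libraries, 0.442 to 0.448% in the MCC950 libraries and 0.431 to 0.436% in the untreated libraries. Levels of a gene are compared between libraries in CPM, the counts relative to a common library total after edgeR's TMM scaling, and between genes in TPM, which takes transcript length into account. The labelled cell type was checked by defining markers of T cells (Cd3e), of CD4+ T cells (Cd4) and of naive T cells (Ccr7), which were present in every library. Cd3e had 401 to 420.1 CPM with anti-IL-1b, 394 to 399 CPM with MCC950 and 338 to 345 CPM without treatment. Cd4 had 899 to 911 CPM with anti-IL-1b, 818 to 829 CPM with MCC950 and 839.8 to 859 CPM without treatment. Ccr7 had 454 to 468 CPM with anti-IL-1b, 441 to 448 CPM with MCC950 and 641 to 665 CPM without treatment, and both treated groups lay below the untreated one. A list of 8 naive CD4+ T cell markers summed to 5925 to 5939, 5360 to 5382 and 5961 to 6043 CPM with anti-IL-1b, with MCC950 and without treatment. Of the 8, 3 were higher and 2 lower with anti-IL-1b, and 2 higher and 4 lower with MCC950. Marker lists of other cells differed between the groups. The 12 B cell markers summed to 98.0 to 105.5 CPM with anti-IL-1b, 108.3 to 128.8 CPM with MCC950 and 19.6 to 26.4 CPM without treatment. The 11 neutrophil markers summed to 33.9 to 36.4, 17.4 to 19.8 and 1.10 to 1.34 CPM with anti-IL-1b, with MCC950 and without treatment, with 6 of the 11 at 0 in all untreated libraries. The 7 red cell markers summed to 4.38 to 5.005 CPM with anti-IL-1b, 6.13 to 10.3 CPM with MCC950 and 0.122 to 0.445 CPM without treatment. Sums of 10 monocyte and macrophage markers (18.2 to 22.2, 20.4 to 23.0 and 9.20 to 10.1 CPM) and of 10 CD8 and NK cell markers (96.4 to 105.9, 99.3 to 104.7 and 66.4 to 73.8 CPM) were also higher with anti-IL-1b and with MCC950 than without treatment. Of 6 monocyte and macrophage markers tested, 3 were higher and 1 lower with anti-IL-1b, and 3 higher and 0 lower with MCC950. Of 7 CD8 and NK cell markers tested, 4 were higher and 1 lower with anti-IL-1b, and 3 higher and 0 lower with MCC950.

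Per transcript length, the most abundant of the 35 was Npm1, which encodes the histone and ribosomal protein chaperone nucleophosmin. It stood at 758 ± 6.25 TPM with anti-IL-1b, 801 ± 16.8 TPM with MCC950 and 791 ± 22.0 TPM without treatment (SD, n = 3 each, as for all TPM values). Next in untreated cells came Nop56, a core protein of box C/D complexes, at 274 ± 49.3, 284 ± 14.4 and 322 ± 8.35 TPM with anti-IL-1b, with MCC950 and without treatment. Ncl, which encodes the RNA-binding protein nucleolin, followed at 273 ± 13.6, 273 ± 7.13 and 317 ± 10.6 TPM in those groups. In untreated cells the values of Nop56 and Ncl lay within their spread of each other, and Npm1 lay far above both. At the low end stood Rrp12, an assembly factor needed for export of the subunits, at 20.5 ± 1.497 TPM with anti-IL-1b, 18.3 ± 0.995 TPM with MCC950 and 18.6 ± 0.493 TPM without treatment. Polr1a, the catalytic subunit of polymerase I, had 37.3 ± 1.46, 35.04 ± 4.69 and 37.8 ± 2.94 TPM in those groups.

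**Figure D1:**
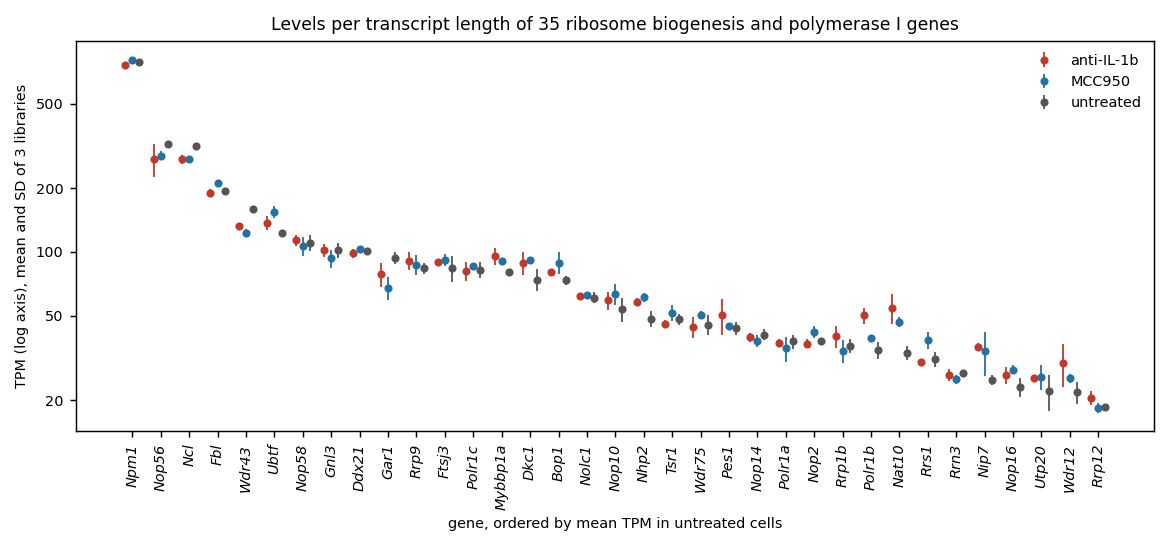
Mean TPM (log axis) and SD of 3 libraries for each of the 35 genes, ordered by their level in untreated cells, with anti-IL-1b in red, MCC950 in blue and untreated in grey. Npm1 stands apart at the top in every group and Rrp12 lies lowest in untreated cells, while for most genes the 3 groups lie close together compared with the distance between genes.

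With the antibody, 18 of the 35 genes fell and 2 rose against untreated cells, at an adjusted p under 0.05 in edgeR's quasi-likelihood test, adjusted by Benjamini-Hochberg over 13374 tested genes. Of all tested genes, 34.0% passed the same rule, 18.5% as lower and 15.4% as higher. The median log2 fold change of the 35 was -0.12, beside 0.0035 over all tested genes, and single genes lay between -0.48 and 0.28. With MCC950, 10 genes fell and 5 rose against untreated cells, where 36.8% of all tested genes passed, 19.1% as lower and 17.7% as higher. Here the median was -0.024, beside 0.011 over all tested genes, and the range was -0.28 to 0.28. Both comparisons share the untreated libraries. Log2 fold changes are given ± SE, and libraries carry the replicate numbers 1 to 3 of the labels, in which their values are listed. In bulk RNA, fewer cells of a type and less RNA per cell cannot be told apart.

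The genes lower in both comparisons, which share the untreated libraries, numbered 10: Rrn3, Ncl, Npm1, Gnl3, Ddx21, Nop56, Nop58, Nop14, Wdr43 and Wdr75. Nat10 was higher in both. Rrs1 was lower with anti-IL-1b and higher with MCC950. A further 8 genes passed with the antibody and not with MCC950, 7 of them lower (Nolc1, Fbl, Rrp9, Gar1, Tsr1, Nop2 and Ftsj3) and Wdr12 higher. Another 3 passed with MCC950 and not with the antibody, and all 3 were higher (Ubtf, Nhp2 and Nip7). The 12 that passed in neither comparison were Polr1a, Polr1b, Polr1c, Mybbp1a, Dkc1, Nop10, Utp20, Rrp12, Bop1, Pes1, Nop16 and Rrp1b. Counted by library, all 3 anti-IL-1b values lay below all 3 untreated values for 19 genes and above them for 3, where 22.8% of all tested genes lay below and 20.4% above. For MCC950 the counts were 11 below and 5 above, with 23.8% and 23.5% of all tested genes.

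These directions depended on how libraries were scaled. With library totals alone in place of TMM, the anti-IL-1b comparison had 8 lower and 7 higher genes with a median of 0.0024, where 10.0% of all tested genes were lower and 29.4% higher. The MCC950 comparison then had 3 lower and 14 higher with a median of 0.090, where 11.9% of all tested genes were lower and 30.0% higher. The same change moved the median of all tested genes to 0.13 and 0.12. Relative to that median, the median of the 35 genes was -0.13 with anti-IL-1b and -0.035 with MCC950 under TMM and under library totals alike. Rescaling the counts shifts all genes by nearly the same amount, so this distance can hardly change and its sameness is no check. On log2(TPM + 1) with limma, 2 genes were lower and 5 higher with anti-IL-1b, where 6.45% of all tested genes were lower and 19.7% higher, and 3 were lower and 7 higher with MCC950, where the shares were 8.24% and 16.3%. The medians of the 35 on that scale were 0.036 with anti-IL-1b and 0.10 with MCC950, beside 0.14 and 0.090 over all tested genes. Ncl, Wdr43 and Nat10 kept their calls in both comparisons under every setting that was run, and Ubtf did so for MCC950. Library totals ended the anti-IL-1b calls of Rrn3, Nolc1, Ddx21, Fbl, Rrp9, Nop14, Tsr1, Nop2, Rrs1 and Ftsj3. They ended the MCC950 calls of Rrn3, Npm1, Ddx21, Nop56, Nop58, Nop14 and Wdr75. On log2(TPM + 1) the anti-IL-1b calls other than those of Ncl, Wdr43 and Nat10 were lost. So were the MCC950 calls other than those of Ubtf, Ncl, Wdr43, Nhp2, Nat10 and Rrs1.

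**Figure D2:**
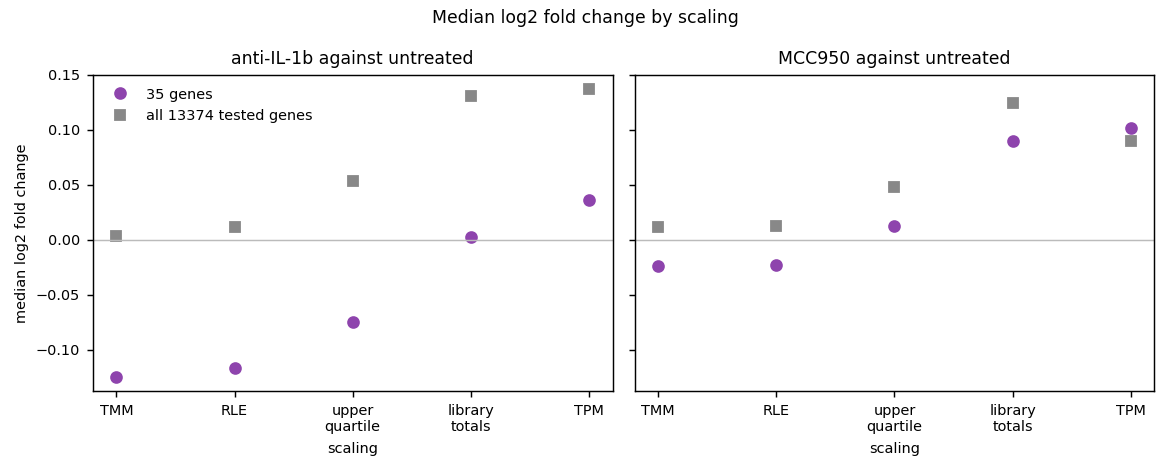
Median log2 fold change of the 35 genes (purple circles) and of all 13374 tested genes (grey squares) under 5 ways of scaling the libraries, for anti-IL-1b against untreated on the left and MCC950 against untreated on the right. The anti-IL-1b median of the 35 genes lies at -0.12 with TMM, 0.0024 with library totals and 0.036 with TPM. It lies below that of all genes throughout, a distance that rescaling the counts can hardly change, since it shifts all genes nearly alike. The MCC950 medians of both sets lie close together.

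Handling and stress transcripts moved with both agents. A list of 22 heat shock and handling genes summed to 8074 to 8282 CPM with anti-IL-1b, 9571 to 9727 CPM with MCC950 and 31515 to 31931 CPM without treatment, and 22 of 22 were lower in both comparisons. A list of 10 activated T cell markers summed to 226.3 to 244.2 CPM with anti-IL-1b, 199.7 to 207.9 CPM with MCC950 and 1539 to 1549 CPM without treatment, while its single genes went both ways, with 4 lower and 3 higher with anti-IL-1b and 5 lower and 3 higher with MCC950. Markers of dividing cells, 12 in all, summed to 131.6 to 141.5, 137.2 to 142.7 and 126.8 to 131.0 CPM with anti-IL-1b, with MCC950 and without treatment. The part of these lists, and of the markers of other cells, in the values of the ribosome biogenesis genes was not tested.

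**Figure D3:**
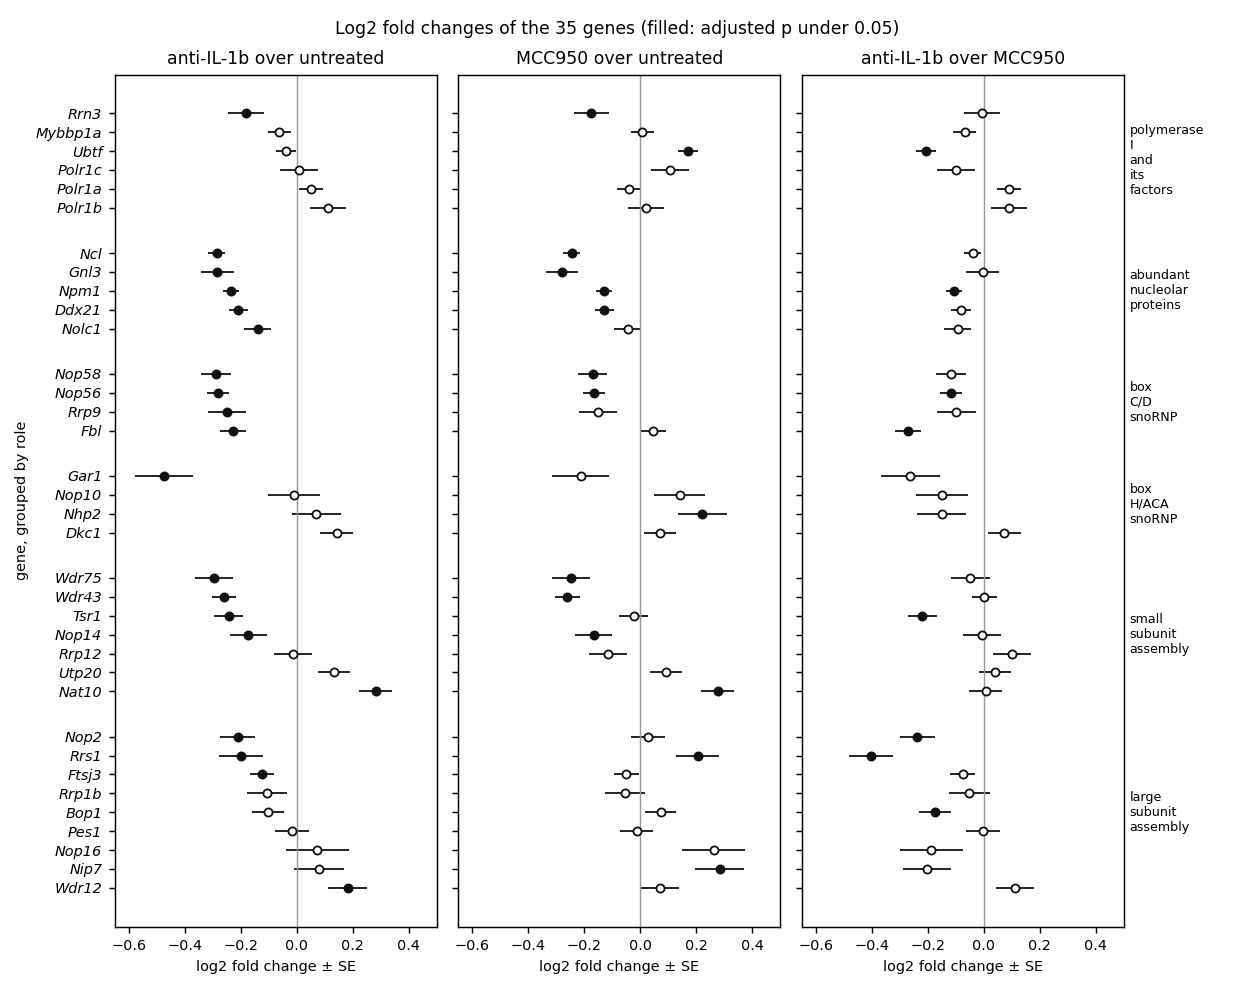
Log2 fold changes with SE for the 35 genes grouped by role, for anti-IL-1b over untreated, MCC950 over untreated and anti-IL-1b over MCC950, under TMM scaling. Filled circles passed an adjusted p of 0.05 in edgeR's quasi-likelihood test, 20 in the first panel, 15 in the second and 8 in the third, and the calls of most genes change with library totals or TPM in place of TMM.

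Promoter sequence from RefSeq (GRCm38.p6) was matched by symbol for 30 of the 35 genes, in 38 windows of 300 bases, most of each lying before the RefSeq start and the rest just after it. Bop1, Fbl, Npm1, Rrp12 and Rrs1 had no entry. Shown are the windows of Ncl (chr1:86359406-86359705, minus strand), Wdr43 (chr17:71615965-71616264, plus strand) and Nat10 (chr2:103761221-103761520, minus strand), which kept their calls under every setting, and of Rrn3 (chr16:13780449-13780748, plus strand), the initiation factor of polymerase I. Each is written 5′ to 3′ along the gene, with capitals for the E-box CACGTG, the letters that Myc and Max bind, and for the GC box GGGCGG on either strand.
Ncl: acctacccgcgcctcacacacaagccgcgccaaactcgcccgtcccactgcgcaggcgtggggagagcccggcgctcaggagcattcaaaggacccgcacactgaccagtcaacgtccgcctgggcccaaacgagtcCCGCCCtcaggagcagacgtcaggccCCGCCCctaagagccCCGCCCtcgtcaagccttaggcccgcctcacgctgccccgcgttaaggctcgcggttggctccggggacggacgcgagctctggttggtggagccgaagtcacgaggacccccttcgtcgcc
Wdr43: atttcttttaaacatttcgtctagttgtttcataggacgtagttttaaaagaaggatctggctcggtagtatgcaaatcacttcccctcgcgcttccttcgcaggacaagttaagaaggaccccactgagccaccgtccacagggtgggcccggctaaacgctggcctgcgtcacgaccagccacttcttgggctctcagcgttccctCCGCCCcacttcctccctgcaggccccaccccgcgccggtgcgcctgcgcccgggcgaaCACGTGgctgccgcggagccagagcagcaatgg
Nat10: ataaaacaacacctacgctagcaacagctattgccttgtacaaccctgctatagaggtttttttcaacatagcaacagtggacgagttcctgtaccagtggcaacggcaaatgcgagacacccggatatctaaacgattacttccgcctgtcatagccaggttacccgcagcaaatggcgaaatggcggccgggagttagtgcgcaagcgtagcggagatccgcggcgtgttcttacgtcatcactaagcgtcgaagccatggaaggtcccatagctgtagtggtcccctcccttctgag
Rrn3: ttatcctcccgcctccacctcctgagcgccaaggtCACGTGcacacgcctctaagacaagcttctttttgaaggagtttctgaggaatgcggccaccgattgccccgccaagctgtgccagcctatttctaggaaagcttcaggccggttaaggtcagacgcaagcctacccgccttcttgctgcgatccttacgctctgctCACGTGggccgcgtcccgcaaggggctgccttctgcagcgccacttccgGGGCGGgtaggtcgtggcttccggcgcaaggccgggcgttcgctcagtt

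The E-box was present in 7 of the 38 windows (18.4%), one each of Mybbp1a, Nop2, Pes1, Rrn3, Tsr1, Utp20 and Wdr43, and in 7.15% of 32851 mouse promoter windows of the same length. Of these 7 genes, Rrn3, Tsr1, Wdr43 and Nop2 fell with anti-IL-1b, and Rrn3 and Wdr43 also with MCC950. Of all 35 genes, 18 fell with anti-IL-1b and 10 with MCC950, so the shares among the E-box genes lay near those of the whole list. Rrn3 holds 2 E-boxes, at -215 and -48 from its start, and Wdr43 holds 1 at 17. The GC box was in 27 of the 38 windows (71.1%) and in 35.7% of all windows. Neither motif is in the Nat10 window, and the Ncl window holds 3 GC boxes and no E-box. The CCAAT box, searched on both strands as CCAAT, was in 11 of the 38 windows (28.9%) and in 37.4% of all. The ETS core CCGGAAG was in 8 of the 38 (21.1%) and in 8.86% of all. These matches are a description of letters and not of bound sites.

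Among the genes of polymerase I itself, the core subunits did not pass the test in either comparison. Polr1a, the catalytic subunit, had 144, 142 and 134 CPM in the anti-IL-1b libraries, 136, 131 and 126 CPM in the MCC950 libraries and 134, 133 and 138 CPM in the untreated libraries. Polr1b, the second-largest subunit, had 60.5, 60.1 and 56.6 CPM in the anti-IL-1b libraries, 55.8, 52.9 and 57.9 CPM in the MCC950 libraries and 55.6, 53.5 and 55.0 CPM in the untreated libraries. Polr1c, a subunit shared with RNA polymerase III, had 50.3, 52.0 and 47.6 CPM in the anti-IL-1b libraries, 52.9, 52.2 and 55.5 CPM in the MCC950 libraries and 49.1, 47.4 and 52.6 CPM in the untreated libraries. Treated and untreated values overlapped for Polr1a and Polr1c, and for Polr1b all 3 anti-IL-1b values lay above the untreated ones, by a log2 fold change of 0.11 ± 0.065 (edgeR adjusted p = 0.191). With library totals in place of TMM, Polr1a and Polr1b passed as higher with anti-IL-1b, at 0.18 and 0.24 on the log2 scale, and Polr1c with MCC950 at 0.22. Polr1b also passed as higher with anti-IL-1b on log2(TPM + 1), at 0.53.

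The factors that recruit polymerase I split. Rrn3, the growth-regulated initiation factor that brings the polymerase to ribosomal DNA, had 56.9, 56.7 and 61.6 CPM in the anti-IL-1b libraries, 59.8, 55.1 and 60.9 CPM in the MCC950 libraries and 66.1, 67.4 and 64.9 CPM in the untreated libraries. Every treated value was below every untreated one, with log2 fold changes of -0.18 ± 0.064 for anti-IL-1b and -0.18 ± 0.063 for MCC950 (edgeR adjusted p = 0.0243 and 0.0260). The anti-IL-1b call of Rrn3 was lost without anti-IL-1b 1 or 2 or untreated 1 or 2, at an edgeR adjusted p of up to 0.0885, and its MCC950 call without MCC950 2 or untreated 1 or 2, at up to 0.155. Both calls were also lost with upper-quartile or library-total scaling and on log2(TPM + 1). Ubtf, which encodes the factor that coats and opens ribosomal DNA, had 229, 250.5 and 237 CPM in the anti-IL-1b libraries, 275, 274 and 279 CPM in the MCC950 libraries and 241, 246 and 249 CPM in the untreated libraries. Its MCC950 values stood above all others, at 0.17 ± 0.035 over untreated (edgeR adjusted p = 1.57e-04), while the anti-IL-1b values overlapped the untreated ones at -0.038 (edgeR adjusted p = 0.442). Mybbp1a, a nucleolar MYB-binding protein, ranged from 204.2 to 232.4 CPM with anti-IL-1b, 228.1 to 238.2 CPM with MCC950 and 224.4 to 240.8 CPM without treatment, and passed in neither comparison. With library totals Ubtf passed as higher with anti-IL-1b too, at 0.089. On log2(TPM + 1) Mybbp1a passed as higher with anti-IL-1b, at 0.24.

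Of the abundant nucleolar proteins, 5 of 5 fell with anti-IL-1b and 4 of 5 with MCC950 under TMM, against 3 and 2 of 5 with library totals and 1 of 5 in either comparison on log2(TPM + 1). Shares of lower genes over all tested genes, with anti-IL-1b and MCC950, were 18.5% and 19.1% under TMM. They were 10.0% and 11.9% with library totals, and 6.45% and 8.24% on log2(TPM + 1). The summed level of the 5 nucleolar genes was 1582 to 1675 CPM with anti-IL-1b, 1702 to 1731 CPM with MCC950 and 1911 to 1968 CPM without treatment. Ncl, whose protein nucleolin binds the ribosomal RNA precursor, had 588, 592 and 641 CPM in the anti-IL-1b libraries, 620.3, 623 and 629 CPM in the MCC950 libraries and 729, 758 and 734 CPM in the untreated libraries. No treated library reached the lowest untreated one, and the log2 fold changes were -0.29 ± 0.030 with anti-IL-1b and -0.25 ± 0.030 with MCC950 (edgeR adjusted p = 3.70e-10 and 1.20e-08). Npm1 had 562, 576 and 577 CPM in the anti-IL-1b libraries, 609.8, 627 and 609.9 CPM in the MCC950 libraries and 665, 688 and 666 CPM in the untreated libraries. Its 3 groups did not overlap at all, with anti-IL-1b lowest and untreated highest, and it fell by 0.24 on the log2 scale with anti-IL-1b (edgeR adjusted p = 6.67e-09) and by 0.13 with MCC950 (edgeR adjusted p = 2.55e-04). On log2(TPM + 1) the MCC950 difference of Npm1 was 0.020 and did not pass.

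Gnl3, the nucleolar GTPase nucleostemin, had 71.1, 84.0 and 78.2 CPM in the anti-IL-1b libraries, 79.7, 78.8 and 75.4 CPM in the MCC950 libraries and 96.2, 90.3 and 97.5 CPM in the untreated libraries. Both treated groups lay below the untreated one, at -0.28 ± 0.058 with anti-IL-1b and -0.28 ± 0.058 with MCC950 (edgeR adjusted p = 1.61e-04 and 1.58e-04). On log2(TPM + 1) the differences of Gnl3 were -0.0077 with anti-IL-1b and -0.13 with MCC950 and did not pass. Ddx21, an RNA helicase that acts on snoRNAs and ribosomal DNA, had 263, 286 and 279 CPM in the anti-IL-1b libraries, 289.9, 299 and 287 CPM in the MCC950 libraries and 324, 323 and 311 CPM in the untreated libraries, again with no overlap between treated and untreated. Its log2 fold changes were -0.21 ± 0.035 and -0.13 ± 0.034 (edgeR adjusted p = 5.42e-06 with anti-IL-1b and 0.00283 with MCC950). With library totals they were -0.083 and -0.015 and did not pass, and Ddx21 did not pass on log2(TPM + 1) either. Nolc1, a chaperone of snoRNA complexes, had 97.1, 96.9 and 99.2 CPM in the anti-IL-1b libraries, 102, 103 and 107 CPM in the MCC950 libraries and 111, 109 and 104 CPM in the untreated libraries. It passed with anti-IL-1b at -0.14 ± 0.048 (edgeR adjusted p = 0.0226), and with MCC950 the values overlapped the untreated ones at -0.046 (edgeR adjusted p = 0.493). The call with anti-IL-1b was lost without anti-IL-1b 1 or 2 or untreated 1 or 2, at an edgeR adjusted p of up to 0.121. It was also lost with upper-quartile or library-total scaling and on log2(TPM + 1).

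**Figure D4:**
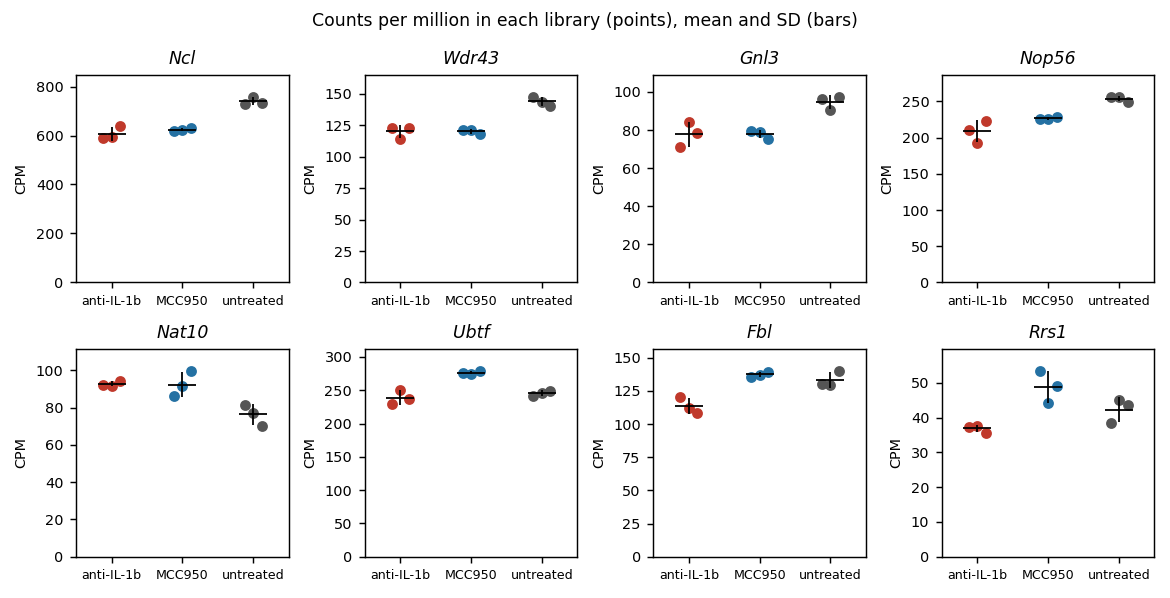
CPM in each library (points) with the mean and SD of 3 libraries (bars) for 8 genes, with anti-IL-1b left, MCC950 in the middle and untreated right in each panel, and axes that start at 0. Ncl, Wdr43, Gnl3 and Nop56 are lower and Nat10 is higher in both treated groups, while Ubtf, Fbl and Rrs1 are higher with MCC950 than with anti-IL-1b.

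All 4 box C/D genes fell with anti-IL-1b, and Nop56 and Nop58 also with MCC950, under TMM. With library totals 2 of 4 still fell with anti-IL-1b while 1 rose with MCC950, and on log2(TPM + 1) none of the 4 fell and 1 rose with MCC950. Shares of all tested genes lower under TMM were 18.5% with anti-IL-1b and 19.1% with MCC950. With library totals 10.0% were lower with anti-IL-1b and 30.0% higher with MCC950, and on log2(TPM + 1) 16.3% were higher with MCC950. The box C/D proteins form the complexes that place methyl groups on ribosomal RNA. Nop56 had 210.4, 193 and 223 CPM in the anti-IL-1b libraries, 226, 226 and 228 CPM in the MCC950 libraries and 256, 256 and 249.6 CPM in the untreated libraries. Its treated values all lay below the untreated ones, at -0.28 ± 0.040 with anti-IL-1b and -0.16 ± 0.039 with MCC950 (edgeR adjusted p = 2.47e-07 and 8.65e-04). Nop58, the partner of Nop56 in the complex, had 86.9, 84.6 and 90.3 CPM in the anti-IL-1b libraries, 90.1, 93.4 and 101 CPM in the MCC950 libraries and 108, 102 and 109.8 CPM in the untreated libraries. It fell by 0.29 on the log2 scale with anti-IL-1b (edgeR adjusted p = 2.91e-05) and by 0.17 with MCC950 (edgeR adjusted p = 0.00872), with no overlap. On log2(TPM + 1) the anti-IL-1b difference of Nop58 was 0.036 and did not pass, and its MCC950 call was lost without MCC950 1, at an edgeR adjusted p of 0.0863.

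Fbl, which encodes the methyltransferase fibrillarin, had 121, 112 and 108 CPM in the anti-IL-1b libraries, 136, 137 and 139 CPM in the MCC950 libraries and 130.4, 129 and 139.9 CPM in the untreated libraries. The anti-IL-1b values lay below all others at -0.23 ± 0.046 against untreated (edgeR adjusted p = 1.38e-04), and the MCC950 and untreated values overlapped at 0.045 (edgeR adjusted p = 0.479). With library totals the anti-IL-1b difference of Fbl was -0.10 and did not pass, and Fbl passed as higher with MCC950 at 0.16. On log2(TPM + 1) these differences were -0.040, which did not pass, and 0.12, which did. Rrp9, a protein of the U3 complex that directs the first cuts of the precursor, had 46.1, 53.1 and 51.7 CPM in the anti-IL-1b libraries, 55.1, 53.2 and 53.2 CPM in the MCC950 libraries and 59.4, 56.9 and 63.1 CPM in the untreated libraries. It fell with anti-IL-1b at -0.25 ± 0.068 (edgeR adjusted p = 0.00374), and with MCC950 its log2 fold change was -0.15 (edgeR adjusted p = 0.0765).

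The box H/ACA genes, whose proteins convert uridines to pseudouridine, showed no shared direction. Gar1, a core protein of these complexes, had 20.1, 20.3 and 24.7 CPM in the anti-IL-1b libraries, 29.4, 24.8 and 24.0 CPM in the MCC950 libraries and 29.2, 32.9 and 28.4 CPM in the untreated libraries. It fell with anti-IL-1b by 0.48 on the log2 scale (SE 0.10, edgeR adjusted p = 3.33e-04), the largest difference among the 35 genes in that comparison. With MCC950 it lay at -0.21 (edgeR adjusted p = 0.0980), and on log2(TPM + 1) the anti-IL-1b difference was -0.26 and did not pass. It passed with MCC950 on log2(TPM + 1) at -0.47 and when the first MCC950 library was left out at -0.30. Nhp2, another core protein, had 31.3, 31.5 and 28.5 CPM in the anti-IL-1b libraries, 33.1, 32.7 and 35.4 CPM in the MCC950 libraries and 26.0, 30.2 and 30.6 CPM in the untreated libraries. Its MCC950 values stood above the untreated ones at 0.22 ± 0.087 (edgeR adjusted p = 0.0430), and anti-IL-1b overlapped untreated at 0.070 (edgeR adjusted p = 0.591). The MCC950 call of Nhp2 was lost without any 1 of the MCC950 libraries or untreated 1, at an edgeR adjusted p of up to 0.196. It was also lost with DESeq2 (DESeq2 adjusted p = 0.0540) and with the filter of 1 count (edgeR adjusted p = 0.0564). On log2(TPM + 1) Nhp2 passed as higher with anti-IL-1b too, at 0.27. Dkc1, the pseudouridine synthase, and Nop10, the smallest core protein, passed in neither comparison, with log2 fold changes of 0.14 and -0.010 for anti-IL-1b and 0.070 and 0.14 for MCC950. Dkc1 had an edgeR adjusted p of 0.0566 with anti-IL-1b, and it passed there as higher with RLE, upper-quartile or library-total scaling, both other filters, its own 6 libraries and 4 of the settings that left out a library. With MCC950 Dkc1 passed as higher with library totals at 0.18 and on log2(TPM + 1) at 0.32, and Nop10 with library totals at 0.25 and without untreated 3 at 0.25.

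In the small subunit group of 7 genes, 4 fell and 1 rose with anti-IL-1b, and 3 fell and 1 rose with MCC950, under TMM. With library totals 2 fell and 2 rose with anti-IL-1b, and 1 fell and 2 rose with MCC950. Shares of all tested genes under TMM were 18.5% lower and 15.4% higher with anti-IL-1b, and 19.1% and 17.7% with MCC950. With library totals the shares were 10.0% and 29.4% with anti-IL-1b, and 11.9% and 30.0% with MCC950. Wdr43 and Wdr75 belong to the subcomplex that joins transcription of the precursor to its processing. Wdr43 had 123, 114 and 123 CPM in the anti-IL-1b libraries, 121, 121 and 118 CPM in the MCC950 libraries and 148, 144 and 141 CPM in the untreated libraries. The treated groups overlapped each other and lay below every untreated value, at -0.26 ± 0.044 with anti-IL-1b and -0.26 ± 0.044 with MCC950 (edgeR adjusted p = 8.07e-06 and 6.04e-06). Wdr75 had 50.5, 48.1 and 52.0 CPM in the anti-IL-1b libraries, 51.9, 53.2 and 50.6 CPM in the MCC950 libraries and 56.9, 66.5 and 61.4 CPM in the untreated libraries, again with every treated value below every untreated one. Its log2 fold changes were -0.30 ± 0.068 and -0.25 ± 0.067 (edgeR adjusted p = 6.45e-04 with anti-IL-1b and 0.00329 with MCC950), and on log2(TPM + 1) the MCC950 difference was 0.15 and did not pass.

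Nat10, the acetyltransferase of small subunit ribosomal RNA, went the other way. It had 92.2, 91.8 and 94.2 CPM in the anti-IL-1b libraries, 86.0, 91.3 and 99.5 CPM in the MCC950 libraries and 81.4, 77.2 and 70.4 CPM in the untreated libraries. Every treated value exceeded every untreated value, with log2 fold changes of 0.28 ± 0.059 for anti-IL-1b and 0.28 ± 0.058 for MCC950 (edgeR adjusted p = 1.89e-04 and 2.11e-04). Per transcript length, Nat10 stood at 54.5 ± 8.79 TPM with anti-IL-1b, 46.8 ± 2.497 TPM with MCC950 and 33.5 ± 2.56 TPM without treatment.

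Nop14, a scaffold of the small subunit processome, had 61.9, 54.3 and 63.7 CPM in the anti-IL-1b libraries, 62.3, 55.5 and 63.2 CPM in the MCC950 libraries and 68.3, 66.0 and 68.6 CPM in the untreated libraries, and fell in both comparisons, at -0.17 ± 0.067 and -0.17 ± 0.066 (edgeR adjusted p = 0.0409 with anti-IL-1b and 0.0459 with MCC950). Its treated values all lay below the untreated ones. The anti-IL-1b call of Nop14 was lost without anti-IL-1b 2, MCC950 1 or 3 or any 1 untreated library, at an edgeR adjusted p of up to 0.270, and its MCC950 call without MCC950 1 or 2 or any 1 untreated library, at up to 0.276. Both calls were also lost with DESeq2, upper-quartile or library-total scaling, no robust option and log2 TPM. RLE scaling and the comparison's own 6 libraries ended the anti-IL-1b call too, and the filter of 1 count ended the MCC950 call. Tsr1, a late small subunit factor related to GTPases, had 86.2, 93.1 and 90.8 CPM in the anti-IL-1b libraries, 99.4, 103 and 112 CPM in the MCC950 libraries and 105, 109 and 105 CPM in the untreated libraries. It fell with anti-IL-1b at -0.24 ± 0.052 (edgeR adjusted p = 2.58e-04) and overlapped untreated with MCC950 at -0.024 (edgeR adjusted p = 0.763). Utp20, a large processome scaffold, and Rrp12 passed in neither comparison, with log2 fold changes of 0.13 and -0.013 for anti-IL-1b and 0.093 and -0.11 for MCC950. With library totals Utp20 passed as higher with anti-IL-1b at 0.26 and with MCC950 at 0.21.

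The 9 large subunit genes were mixed, with 3 lower and 1 higher with anti-IL-1b and 2 higher with MCC950 under TMM. With library totals none was lower, and 1 was higher with anti-IL-1b and 5 with MCC950. Shares of all tested genes under TMM were 18.5% lower and 15.4% higher with anti-IL-1b, and 19.1% and 17.7% with MCC950. With library totals the shares were 10.0% and 29.4% with anti-IL-1b, and 11.9% and 30.0% with MCC950. Nop2, a methyltransferase of large subunit ribosomal RNA, had 57.7, 55.2 and 52.5 CPM in the anti-IL-1b libraries, 64.7, 64.7 and 65.8 CPM in the MCC950 libraries and 63.8, 61.7 and 66.1 CPM in the untreated libraries. Its anti-IL-1b values lay below all others, at -0.21 ± 0.063 against untreated (edgeR adjusted p = 0.00748), and MCC950 overlapped untreated at 0.027 (edgeR adjusted p = 0.777). Rrs1, which helps bring the 5S particle into the subunit, had 37.4, 37.7 and 35.7 CPM in the anti-IL-1b libraries, 53.4, 44.3 and 49.1 CPM in the MCC950 libraries and 38.3, 45.0 and 43.7 CPM in the untreated libraries. Its anti-IL-1b values lay below all others and its MCC950 values overlapped the untreated ones, with log2 fold changes of -0.20 ± 0.080 and 0.20 ± 0.077 (edgeR adjusted p = 0.0489 with anti-IL-1b and 0.0351 with MCC950). The anti-IL-1b call of Rrs1 was lost without any 1 of the anti-IL-1b libraries, MCC950 1 or 3 or untreated 2 or 3, at an edgeR adjusted p of up to 0.203, and its MCC950 call without MCC950 1 or 3 or untreated 1, at up to 0.213. The anti-IL-1b call was also lost with each other scaling, both other filters, DESeq2, limma-voom and log2 TPM. DESeq2 ended the MCC950 call of Rrs1 as well.

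Nip7, which acts in maturation of the large subunit, had 27.2, 30.9 and 29.1 CPM in the anti-IL-1b libraries, 32.0, 34.7 and 33.7 CPM in the MCC950 libraries and 26.1, 27.8 and 28.5 CPM in the untreated libraries. The MCC950 values were the highest and did not overlap untreated, at 0.28 ± 0.087 (edgeR adjusted p = 0.00885), and with anti-IL-1b the log2 fold change was 0.079 (edgeR adjusted p = 0.534). On log2(TPM + 1) Nip7 had positive differences with both agents. It passed with anti-IL-1b, at 0.50, and did not pass with MCC950, at 0.40 (limma adjusted p = 0.0364 and 0.0798). Ftsj3, a methyltransferase-like assembly factor, had 115, 123 and 118 CPM in the anti-IL-1b libraries, 122, 124 and 129 CPM in the MCC950 libraries and 130.3, 127 and 132 CPM in the untreated libraries. It fell with anti-IL-1b at -0.12 ± 0.044 (edgeR adjusted p = 0.0264), without overlap, and with library totals its difference was 0.0024 and did not pass. With MCC950 the log2 fold change of Ftsj3 was -0.050 (edgeR adjusted p = 0.406). Leaving out anti-IL-1b 1 or 3 or untreated 1 or 3 ended the anti-IL-1b call of Ftsj3, at an edgeR adjusted p of up to 0.112.

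The proteins of Bop1, Pes1 and Wdr12 form one trimeric complex that processes the large subunit precursor. Wdr12 had 50.5, 52.1 and 52.6 CPM in the anti-IL-1b libraries, 48.8, 49.3 and 45.6 CPM in the MCC950 libraries and 44.9, 44.8 and 47.3 CPM in the untreated libraries. It rose with anti-IL-1b at 0.18 ± 0.069 (edgeR adjusted p = 0.0375), with no overlap, and lay at 0.070 with MCC950 (edgeR adjusted p = 0.457). Leaving out anti-IL-1b 2 or 3 or untreated 1 or 2 ended the call, at an edgeR adjusted p of up to 0.108. The filter of 1 count also ended it, and it was lost on log2(TPM + 1). Bop1 and Pes1 passed in neither comparison, with log2 fold changes of -0.10 and -0.017 for anti-IL-1b and 0.072 and -0.013 for MCC950. Nop16 and Rrp1b, further large subunit factors, also did not pass, at 0.073 and -0.11 for anti-IL-1b and 0.26 and -0.054 for MCC950. Nop16 had the fewest reads of the 35, with 876 counts over the 3 anti-IL-1b libraries, 1131 over the MCC950 libraries and 965 over the untreated libraries, and its MCC950 difference passed with library totals at 0.38, as did that of Bop1 at 0.19.

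Set directly against MCC950, anti-IL-1b had 8 of the 35 genes lower and 0 higher, where 13.2% of all tested genes passed, 7.11% as lower and 6.13% as higher. At an unadjusted p under 0.05 the count was 12 lower and 1 higher, and the share of all tested genes at that rule was not counted. DESeq2 and limma-voom each called 6 lower and 0 higher, without Bop1 and Nop56. Over all tested genes DESeq2 called 865 lower and 866 higher, and limma-voom 862 lower and 724 higher. The median log2 difference was -0.081, beside 0.00086 over all tested genes. All 3 anti-IL-1b values lay below all 3 MCC950 values for 15 genes and above them for 1, where 15.4% of all tested genes lay below and 14.0% above. Rrs1 had the largest difference at -0.40 ± 0.079, and Fbl followed at -0.27 ± 0.046 (edgeR adjusted p = 3.04e-04 and 4.02e-05). Nop2 lay at -0.24 ± 0.063, Tsr1 at -0.22 ± 0.052 and Ubtf at -0.21 ± 0.035 (edgeR adjusted p = 0.00742, 0.00274 and 4.02e-05). Smaller differences passed for Bop1 at -0.17 ± 0.057, Nop56 at -0.12 ± 0.040 and Npm1 at -0.11 ± 0.028 (edgeR adjusted p = 0.0366, 0.0419 and 0.00722). None of the 8 passed on log2(TPM + 1) or log2(TPM + 0.1), and leaving out MCC950 3 brought the count to 5. Without MCC950 3 Tsr1 had an edgeR adjusted p of 0.0562, and without anti-IL-1b 3 Nop2 had one of 0.0503. The calls of Bop1 and Nop56 were each lost without 5 libraries in turn, at an edgeR adjusted p of up to 0.352 and 0.369: any 1 of the anti-IL-1b libraries or MCC950 1 or 3 for Bop1, and any 1 of the MCC950 libraries or anti-IL-1b 1 or 2 for Nop56. Of the genes that had passed with both agents, 3 had the log2 differences -0.0040 ± 0.059 for Gnl3, 0.00093 ± 0.044 for Wdr43 and 0.0064 ± 0.058 for Nat10.

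Several of the genes carry snoRNA genes inside them. By the GENCODE M21 annotation, 7 of the 35 contain at least 1 snoRNA gene on the same strand: Ncl, Gnl3, Nop56, Nop58, Dkc1, Wdr43 and Tsr1. Of these 7, 6 fell with anti-IL-1b and 5 with MCC950, with median log2 fold changes of -0.28 and -0.17. Among the other 28, 12 fell and 2 rose with anti-IL-1b and 5 fell and 5 rose with MCC950, with medians of -0.082 and 0.014. Over all 216 tested protein-coding genes that contain a snoRNA, 85 were lower and 26 higher with anti-IL-1b, and 75 lower and 27 higher with MCC950, at medians of -0.11 and -0.071. Over all 11158 tested protein-coding genes, 2306 were lower and 1723 higher with anti-IL-1b, and 2344 lower and 2111 higher with MCC950. The snoRNAs themselves were not measured by poly(A) libraries.

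Mean transcript length, RSEM's average over a gene's isoforms, is a readout other than the level. Of the 35 genes, 32 could be tested, since Nop10, Rrp12 and Rrs1 have 1 annotated transcript each. With limma on log2 length, 0 of the 32 passed in any of the 3 comparisons, where 0.245% of 10592 genes passed with anti-IL-1b, 0.359% with MCC950 and 0% between the agents. At an unadjusted p under 0.05 there were 5 genes for anti-IL-1b (Polr1b, Mybbp1a, Ncl, Nhp2 and Wdr43), 4 for MCC950 (Npm1, Ddx21, Gar1 and Wdr43) and 3 between the agents (Polr1b, Fbl and Gar1). Over all 10592 genes the shares at that p were 12.1% for anti-IL-1b, 11.3% for MCC950 and 7.94% between the agents, so these counts lay near the background.

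Other genes of the pathway gave the background to the 35. Their calls are given under TMM alone, and how they depend on scaling was not tested. Over all tested genes, 18.5% were lower and 15.4% higher with anti-IL-1b, and 19.1% were lower and 17.7% higher with MCC950. Of 11 further polymerase I genes, 4 were lower and 1 higher with anti-IL-1b, and 2 lower and 2 higher with MCC950. Taf1d, a subunit of the selectivity factor SL1 that positions polymerase I, had 110.3, 109.6 and 122 CPM in the anti-IL-1b libraries, 105, 102 and 109 CPM in the MCC950 libraries and 146, 146 and 147 CPM in the untreated libraries. It was lower with both agents, at -0.36 ± 0.046 and -0.47 ± 0.046 (edgeR adjusted p = 3.91e-08 with anti-IL-1b and 5.93e-11 with MCC950), while Taf1a, another SL1 subunit, was higher with both, at 0.40 and 0.38 (edgeR adjusted p = 0.00371 with anti-IL-1b and 0.00583 with MCC950). Among 5 subunits shared by the polymerases, 3 (Polr2l, Polr2f and Polr2e) were higher with MCC950 at 0.40, 0.31 and 0.16, and with anti-IL-1b those 3 had log2 fold changes of -0.096, 0.17 and -0.0044 that did not pass. Of 7 polymerase II genes, 1 was lower with anti-IL-1b, and 1 was lower (Polr2a at -0.26) and 1 higher (Polr2g at 0.31) with MCC950. Of 21 polymerase III genes, 2 were lower and 5 higher with anti-IL-1b, and 2 lower and 3 higher with MCC950. Maf1, the repressor of polymerase III, was lower with both, at -0.21 and -0.13.

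Of 44 further small subunit genes, 12 were lower and 3 higher with anti-IL-1b, and 6 lower and 4 higher with MCC950. The shares of all tested genes were 18.5% lower and 15.4% higher with anti-IL-1b, and 19.1% and 17.7% with MCC950. Both MCC950 counts of the small subunit genes lay below those shares. Utp4, which sits in one subcomplex with Wdr43 and Wdr75, had 48.4, 44.6 and 44.0 CPM in the anti-IL-1b libraries, 45.6, 54.4 and 46.7 CPM in the MCC950 libraries and 61.8, 65.5 and 60.7 CPM in the untreated libraries, with treated values below untreated ones at -0.46 and -0.36 (edgeR adjusted p = 2.51e-06 with anti-IL-1b and 8.71e-05 with MCC950). Of 58 further large subunit genes, 19 were lower and 5 higher with anti-IL-1b, and 11 lower and 13 higher with MCC950, where the counts lay near the shares of all tested genes. Mdn1, the giant ATPase that remodels the large subunit precursor, was higher with anti-IL-1b at 0.33 ± 0.030 and with MCC950 at 0.31 ± 0.030, and Nop53, an adaptor of the exosome, was lower with anti-IL-1b at -0.29 ± 0.032 and with MCC950 at -0.26 ± 0.032 (edgeR adjusted p = 8.89e-12 and 4.58e-11 for Mdn1, and 9.49e-10 and 1.08e-08 for Nop53). Of 23 exosome and nuclease genes tested, 2 were lower and 4 higher with anti-IL-1b, and 1 lower and 6 higher with MCC950. Exosc6, a ring subunit of the exosome, had 1.16, 0.322 and 0.525 CPM in the anti-IL-1b libraries, 9.92, 7.55 and 8.94 CPM in the MCC950 libraries and 5.36, 9.60 and 7.32 CPM in the untreated libraries. It was low in the anti-IL-1b libraries alone, at -3.43 ± 0.30 against untreated (edgeR adjusted p = 1.85e-11), and overlapped untreated with MCC950. Of 10 snoRNA complex assembly genes, 1 was lower with anti-IL-1b and 2 with MCC950, and Nufip1, a scaffold of that assembly, was lower in both at -0.52 and -0.33.

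Noncoding host genes of snoRNAs held differences larger than those of the 35. Of 12 tested, 9 were lower and 2 higher with anti-IL-1b, and 7 lower and 2 higher with MCC950, with medians of -0.55 and -0.40. Of all tested genes, 18.5% were lower and 15.4% higher with anti-IL-1b, and 19.1% were lower and 17.7% higher with MCC950. Snhg15 had 27.4, 22.1 and 28.0 CPM in the anti-IL-1b libraries, 27.4, 26.4 and 25.0 CPM in the MCC950 libraries and 87.0, 84.9 and 82.4 CPM in the untreated libraries. Its treated values were all far below the untreated ones, at -1.71 ± 0.078 with anti-IL-1b and -1.69 ± 0.077 with MCC950 (edgeR adjusted p = 6.13e-21 and 6.31e-21). Snhg1 followed at -0.96 ± 0.052 and -0.99 ± 0.052 (edgeR adjusted p = 1.46e-18 with anti-IL-1b and 4.82e-19 with MCC950). In the Myc and Max network, 5 of 10 tested genes were lower and 1 higher with anti-IL-1b, and 8 lower with MCC950. Myc had 90.8, 87.3 and 87.9 CPM in the anti-IL-1b libraries, 88.9, 89.95 and 95.9 CPM in the MCC950 libraries and 107, 114 and 107 CPM in the untreated libraries. It was lower with both agents, at -0.30 ± 0.051 and -0.26 ± 0.051 (edgeR adjusted p = 7.79e-06 with anti-IL-1b and 7.77e-05 with MCC950), as was its partner Max at -0.27 and -0.16. Mxd1, a Max partner that competes with Myc, fell further, at -1.34 ± 0.074 and -1.36 ± 0.073 (edgeR adjusted p = 2.60e-18 with anti-IL-1b and 1.19e-18 with MCC950). The calls of the host genes and of the Myc and Max network are under TMM alone, and their dependence on scaling was not tested.

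Some values are less certain because of how reads can be assigned. Exons of 14 of the 35 genes overlap those of a gene on the other strand, among them Gnl3 with Pbrm1, Nop56 with Idh3b, Rrp9 with Parp3, Tsr1 with Srr and Wdr12 with Carf, and the sources used here do not say whether reads were counted by strand. Transcripts of 14 genes match those of another gene at 90% identity over at least 300 bases, and such genes held counts equal to 1.76% of those of Fbl and 0.483% of those of Npm1. For Wdr12 the figure was 36.1%, so its value is uncertain.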

How the data were processed

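The library kit, NEBNext Ultra II Directional, is named in the labels' protocols. STAR, RSEM and the mm10 build are listed in the submitters' processing notes without versions. The authors deposited expected counts, RSEM's estimates of reads per gene, along with TPM and a mean transcript length, per the file headers. FPKM values and effective lengths, also deposited by the authors, were not used. The length, whose unit was recorded as a score, is in bases, per the file headers.

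Symbols came from GENCODE M21 (GRCm38, the same build as mm10). Expected counts were rounded to integers and tested with edgeR 4.0.16 under R 4.3.3: TMM, filterByExpr, a robust quasi-likelihood fit of 3 group means over 9 libraries, two-sided p-values, Benjamini-Hochberg over 13374 genes and a threshold of 0.05. The common biological coefficient of variation was 0.0707. Log2 lengths were tested with limma 3.58.1, and similar transcripts were sought with blastn 2.17.0. Alternatives were 3 other scalings, 2 other filters, DESeq2 1.42.0, voom, limma-trend on log2 TPM with a pseudocount of 1 or 0.1, a replicate block, no robust option, a threshold of 0.10, each comparison's own 6 libraries, and each library left out. The tests were run on simulated data first.

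The genes and lists were chosen with earlier results of these data known. Values in every library are given for Polr1a, Polr1b, Polr1c, Rrn3, Ubtf, Ncl, Npm1 and Fbl and for genes past the threshold without overlap between treated and untreated, and other pathway genes were taken from the 3 with the smallest p per list and comparison.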

Additional observations from a re-analysis of the deposited data

Results flagged for a closer look

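The effect of the agents differed from each other for 8 of the 35 genes, as tested by anti-IL-1b against MCC950 with edgeR's quasi-likelihood test and Benjamini-Hochberg adjustment, where 13.2% of all tested genes passed. None of the 8 passed on log2(TPM + 1), and the calls of Bop1 and Nop56 were each lost without 5 libraries in turn and with DESeq2 or limma-voom. The log2 difference, anti-IL-1b minus MCC950, was -0.40 for Rrs1, -0.27 for Fbl, -0.24 for Nop2 and -0.22 for Tsr1. It was -0.21 for Ubtf, -0.17 for Bop1, -0.12 for Nop56 and -0.11 for Npm1. All 8 were lower with anti-IL-1b than with MCC950. Under the main settings Rrs1 is the one gene that was lower than untreated with anti-IL-1b and higher with MCC950. Its anti-IL-1b call was lost with each other scaling, both other filters, DESeq2, limma-voom and log2 TPM, and its MCC950 call with DESeq2. The summed counts of Rrs1 were 1771 over the anti-IL-1b, 2647 over the MCC950 and 2374 over the untreated libraries.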

How the results depend on the processing

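The counts of called genes and their median moved with scaling and with limma on log2 TPM, which changes the quantity, the length correction and the test together. With library totals alone, anti-IL-1b against untreated gave 7 higher and 8 lower genes with a median of 0.0024, and MCC950 against untreated gave 14 higher and 3 lower with a median of 0.090. With upper-quartile scaling the anti-IL-1b comparison had 4 higher genes and a median of -0.075, and the MCC950 median was 0.013. On log2(TPM + 1), and alike on log2(TPM + 0.1), anti-IL-1b against untreated gave 5 higher and 2 lower genes with a median of 0.036 (0.037), MCC950 against untreated gave 3 lower genes with a median of 0.10 (0.10), and anti-IL-1b against MCC950 gave 0 lower genes with a median of -0.011 (-0.011). A threshold of 0.10 gave 4 higher genes with anti-IL-1b, and DESeq2 gave 3 higher genes with MCC950. Leaving out each library gave 1 to 3 higher and 14 to 18 lower genes and medians of -0.15 to -0.10 for anti-IL-1b against untreated, 3 to 6 higher and 8 to 10 lower genes and medians of -0.027 to -0.0032 for MCC950 against untreated, and 5 to 8 lower genes and medians of -0.094 to -0.054 between the agents. The length counts stayed at 0.

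With library totals the signs of 8 of the 35 genes turned for anti-IL-1b and of 6 for MCC950, and on log2(TPM + 1) those of 13 and of 8. Among them, those past the threshold under TMM or under the other setting were, for anti-IL-1b with library totals, Ubtf (0.089, now past the threshold) and Ftsj3 (0.0024). On log2(TPM + 1) they were Mybbp1a (0.24, past the threshold), Nolc1 (0.031), Nop58 (0.036), Rrp9 (0.11) and Ftsj3 (0.11) with anti-IL-1b, and Npm1 (0.020), Ddx21 (0.033) and Wdr75 (0.15) with MCC950. On log2(TPM + 0.1) the same genes had 0.24, 0.032, 0.037, 0.11 and 0.11 with anti-IL-1b and 0.020, 0.034 and 0.15 with MCC950. The cause was not tested. Single genes between the agents were put through all settings after seeing the data.

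With the replicate number as a block, 17 genes were lower and 2 higher with anti-IL-1b, 10 lower and 5 higher with MCC950, and 8 lower between the agents, and the one call lost was that of Rrs1 with anti-IL-1b. Each of the 9 libraries correlated best with those of its own number, a hint from the data. All 9 same-number pairs (0.0361 to 0.167) exceeded every pair of unlike number (-0.161 to 0.0340), and 3 of the 9 exceeded 0.1. The labels give no pairing, so the main test did not take the numbers as pairs. Whether the numbers stand for a batch or a pairing was not tested.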
